A study of Homo sapiens with 6 samples.

Results

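Cargo receptors of selective autophagy were followed in an RNA immunoprecipitation experiment on VMP1 with a FLAG tag; VMP1 sits in the endoplasmic reticulum membrane and is needed to build autophagosomes. The set holds 9 genes, taken by symbol: SQSTM1, NBR1, OPTN, CALCOCO2, TAX1BP1, TOLLIP, BNIP3, BNIP3L and FUNDC1. It was drawn up with earlier results of these data known. All 9 were found among the 61806 genes of the count table, and all 9 passed the expression filter that left 20593 genes for testing. The cells were HK2, an established human kidney tubule line, and every sample carried the FLAG-VMP1 plasmid, so the construct is shared by both groups. RNA was taken 48 hours after transfection. The 3 lysate libraries, titled as positive controls, hold RNA of the whole cell extract. The 3 immunoprecipitate libraries hold RNA recovered on beads that carry an antibody to FLAG. The comparison asks which RNAs were over-represented or under-represented on the beads. A precipitate from cells lacking the tagged protein was not analysed here, so a difference is one from lysate and not one from a bead background. All samples come from 1 cell line, and the labels do not say whether the replicates were separate cultures. The p-values therefore describe the spread between these libraries, which may be technical.

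Selective autophagy encloses chosen cargo, such as protein aggregates, damaged mitochondria or bacteria, in a membrane that then fuses with the lysosome. A cargo receptor holds the cargo on one side and an ATG8 protein (LC3 or GABARAP) of the growing membrane on the other, through a short LC3-interacting motif. SQSTM1 (p62), NBR1, OPTN (optineurin), CALCOCO2 (NDP52), TAX1BP1 and TOLLIP are soluble and bind ubiquitin on the cargo. BNIP3, BNIP3L (NIX) and FUNDC1 are anchored in the outer mitochondrial membrane and mark the organelle itself for removal. In kidney tubules these pathways clear aggregates and damaged mitochondria after injury.

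Gene starts are shown first, because the receptors differ in the elements they carry there and because TOLLIP counts were assigned to transcripts from separate starts in different libraries. RefSeq (GRCh38.p14) gave 14 windows of 250 bases before a start for 8 of the 9 genes. The 6 windows below precede the starts of transcripts described further on. Capitals mark matches, on either strand, to ACGTG and GCGTG (core letters of hypoxia response elements), GGGCGG (a GC box) and TGACNNNGC (core letters of an antioxidant response element).
SQSTM1, chr5:179820655-179820904, plus strand: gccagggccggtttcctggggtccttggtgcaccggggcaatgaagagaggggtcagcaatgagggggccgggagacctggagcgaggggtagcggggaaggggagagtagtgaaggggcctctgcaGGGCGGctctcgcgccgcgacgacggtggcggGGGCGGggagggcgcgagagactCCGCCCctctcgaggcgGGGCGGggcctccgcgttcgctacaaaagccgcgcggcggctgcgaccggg
NBR1, chr17:43170964-43171213, plus strand: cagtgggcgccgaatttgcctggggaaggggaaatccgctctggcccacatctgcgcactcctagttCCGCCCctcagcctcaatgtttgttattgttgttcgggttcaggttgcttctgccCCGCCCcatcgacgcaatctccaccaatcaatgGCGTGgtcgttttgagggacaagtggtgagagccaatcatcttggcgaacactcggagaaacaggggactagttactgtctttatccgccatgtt
OPTN, chr10:13099913-13100162, plus strand: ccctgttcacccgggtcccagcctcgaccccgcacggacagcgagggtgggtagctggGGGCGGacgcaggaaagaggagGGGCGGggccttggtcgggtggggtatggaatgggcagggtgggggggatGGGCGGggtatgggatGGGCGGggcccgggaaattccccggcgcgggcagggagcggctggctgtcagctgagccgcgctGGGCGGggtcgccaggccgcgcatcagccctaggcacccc
TOLLIP upstream start, chr11:1309633-1309882, minus strand: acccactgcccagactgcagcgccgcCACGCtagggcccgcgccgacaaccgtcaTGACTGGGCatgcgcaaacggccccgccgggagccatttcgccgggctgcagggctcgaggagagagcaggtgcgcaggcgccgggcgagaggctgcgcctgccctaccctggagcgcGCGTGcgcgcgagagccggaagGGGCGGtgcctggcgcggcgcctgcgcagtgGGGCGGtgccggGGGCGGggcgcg
TOLLIP downstream start, chr11:1302791-1303040, minus strand: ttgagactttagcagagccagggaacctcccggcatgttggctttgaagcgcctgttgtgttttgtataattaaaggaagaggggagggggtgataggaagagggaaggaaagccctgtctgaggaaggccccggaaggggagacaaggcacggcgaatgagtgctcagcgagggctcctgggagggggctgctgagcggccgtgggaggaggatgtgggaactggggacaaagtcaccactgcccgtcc
BNIP3, chr10:131981924-131982173, minus strand: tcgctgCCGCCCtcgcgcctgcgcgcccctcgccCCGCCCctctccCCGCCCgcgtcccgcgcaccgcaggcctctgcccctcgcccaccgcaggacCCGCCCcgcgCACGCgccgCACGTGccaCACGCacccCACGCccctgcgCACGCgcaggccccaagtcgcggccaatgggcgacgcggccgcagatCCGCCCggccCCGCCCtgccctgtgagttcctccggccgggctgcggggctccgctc

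The BNIP3 window held 6 GC boxes, 4 matches to GCGTG and 2 to ACGTG. These last 2 are 1 palindromic stretch, CACGTG, read on both strands. The SQSTM1 window held 4 GC boxes and the OPTN window 5. The upstream TOLLIP window held 3 GC boxes, 2 matches to GCGTG and 1 to TGACNNNGC, while the downstream TOLLIP window held no match to any of the 4 motifs. Of the windows not printed, that of CALCOCO2 held 3 GC boxes, 1 match to ACGTG and 1 to TGACNNNGC. The FUNDC1 window held 3 GC boxes, and the TAX1BP1 window before ENST00000396319 held 2 GC boxes and 1 match to GCGTG. Among all 35116 RefSeq windows of this length, 42.6% held GGGCGG, 32.2% GCGTG, 18.5% ACGTG and 10.9% TGACNNNGC. A match describes letters and is not a binding site.

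Library totals ran from 54363555 to 92948069 gene counts. VMP1, the tagged gene, was at 302 ± 4.25 CPM (SD, n = 3) in lysates, where CPM is the count scaled to library size after TMM normalisation. It was at 2347 CPM in immunoprecipitate 1 and 2685 CPM in immunoprecipitate 3, but at 274 CPM in the library labelled immunoprecipitate 2, below every lysate. In VMP1 that library was thus unlike immunoprecipitates 1 and 3, and results are given with it and without it. Whether its label is right was not tested. Tubule transcripts were present in lysates, with CDH6 at 1379 to 1493 CPM, PAX8 at 283 to 315 CPM and the brush border genes GGT1 at 215 to 237 CPM and ANPEP at 13.7 to 21.7 CPM, while SLC34A1, AQP1, CUBN and HNF4A, markers of mature proximal tubule, were at most 1.56 CPM in each lysate. The library labelled immunoprecipitate 2 held CDH6 at 267 CPM and PAX8 at 66.1 CPM, against 808 and 810 CPM for CDH6 and 245 and 254 CPM for PAX8 in immunoprecipitates 1 and 3. It held other epithelial markers at higher levels, with KRT8 at 928 CPM against 185 and 165 CPM, KRT18 at 315 CPM against 42.9 and 53.9 CPM, and ANPEP at 308 CPM against 6.94 and 0.829 CPM.

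No receptor gene passed the test over all 6 libraries. With edgeR's quasi-likelihood test and Benjamini-Hochberg adjustment over all tested genes, 0 of 9 were higher and 0 of 9 lower at an adjusted p below 0.05, against a background of 0.16% of genes higher and 0.5% lower. At an unadjusted p below 0.05 there were 3 of 9 receptors (OPTN, TAX1BP1 and BNIP3L), beside 21.3% of all tested genes. DESeq2 called 1 receptor, OPTN, higher (background 6.74% higher and 4.22% lower), and limma on log2(FPKM + 1) called the same single gene (background 0.993% higher and 1.31% lower). Without the library labelled immunoprecipitate 2, edgeR called 2 receptors higher (OPTN and TAX1BP1) and 5 lower (SQSTM1, NBR1, CALCOCO2, TOLLIP and BNIP3L). In that fit 23.9% of all genes were higher and 27.2% lower, so calls were frequent across the transcriptome. The median log2 fold change of the 9 receptors was -0.17 over all 6 libraries, beside 0.06 over all tested genes, and -0.35 beside -0.06 without that library. These fold changes compare RNA recovered on the beads with RNA of the whole extract, and do not measure expression per cell. For the levels themselves, in these bulk extracts, fewer cells of a type and less RNA per cell cannot be told apart.

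**Figure D1:**
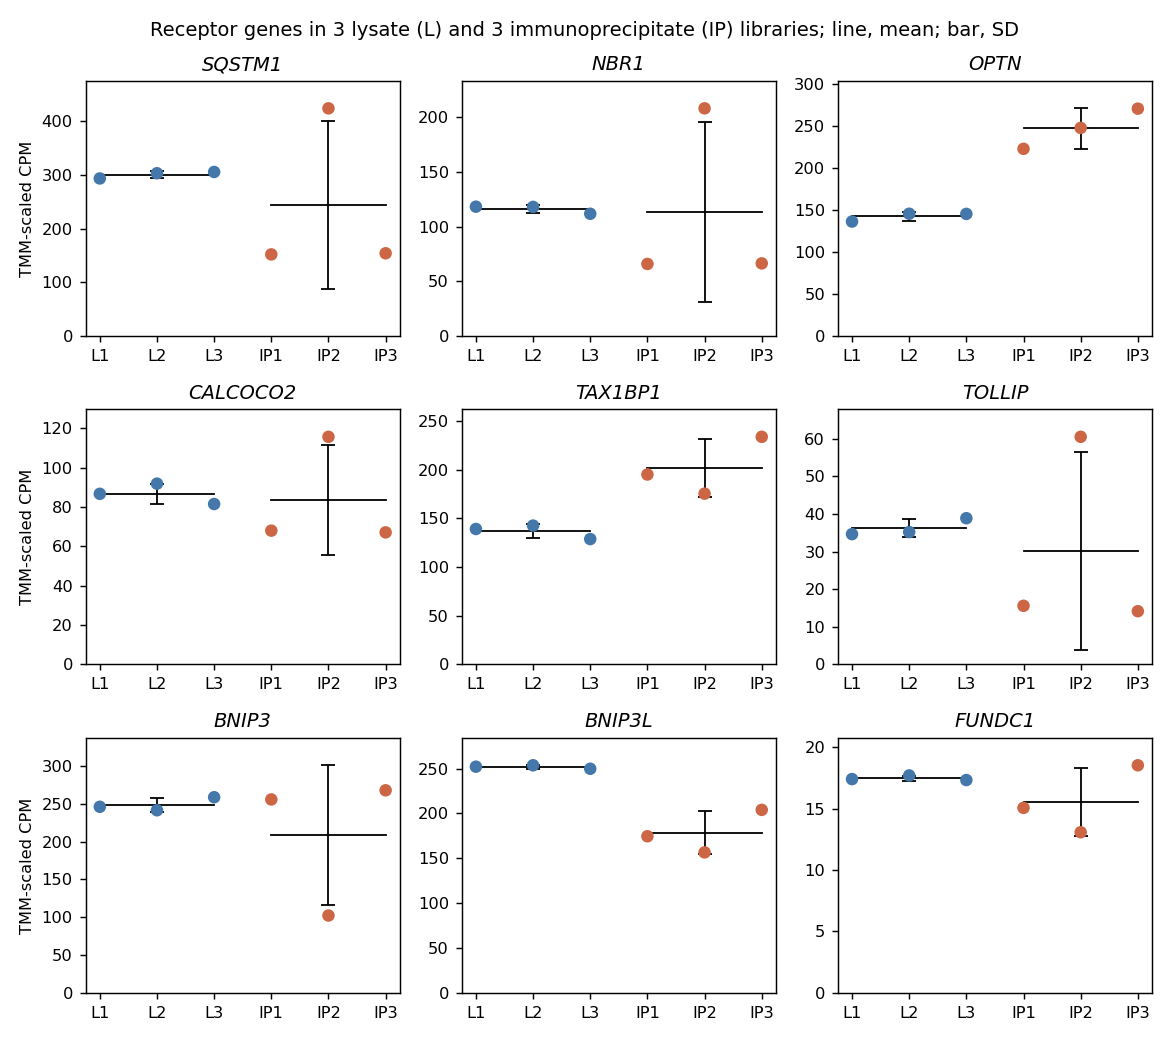
TMM-scaled CPM of each receptor gene in each library, 1 panel per gene, with 3 lysates and 3 immunoprecipitates as points. OPTN and TAX1BP1 lie above all lysates in all 3 immunoprecipitates, BNIP3L lies below them, and SQSTM1, NBR1, CALCOCO2 and TOLLIP have the library labelled immunoprecipitate 2 above the lysates and the other two immunoprecipitates below them.

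SQSTM1, NBR1, CALCOCO2 and TOLLIP shared one layout of values. In each of these 4 soluble receptors, immunoprecipitates 1 and 3 lay below all lysates and the library labelled immunoprecipitate 2 lay above all lysates. The same layout was found in 16.4% of all tested genes. Of 12 fibroblast markers, 6 had this layout (COL1A1, COL1A2, PDGFRA, PDGFRB, THY1 and LOX). So did 6 of 18 tubule and epithelial, 1 of 9 immune and endothelial and 0 of 13 neutrophil markers. In lists described further on, it was found in 6 of 11 transcription factors, 7 of 16 NRF2 targets and 6 of 16 other receptors and adaptors. It was also found in 9 of 33 kinases and partners, 2 of 7 ATG8 proteins and 3 of 16 targets of hypoxia-inducible factor. The 12 fibroblast markers together summed to 309 to 347 CPM in lysates and to 65.7, 923 and 74.8 CPM in immunoprecipitates 1, 2 and 3. LOX was at 551, COL1A1 at 148 and COL1A2 at 125 CPM in the library labelled immunoprecipitate 2. COL1A2 was at 0 in immunoprecipitates 1 and 3. LUM was at 83.4 to 91.3 CPM in lysates, against 12.3, 17.97 and 13.5 CPM in immunoprecipitates 1, 2 and 3, the 1 marker of this list that edgeR called lower over all 6 libraries (adjusted p = 0.0323). The 13 neutrophil markers summed to 403 to 689 CPM in lysates and to 144, 489 and 25.4 CPM in immunoprecipitates 1, 2 and 3, and the 9 immune and endothelial markers to 259 to 314 CPM against 49.1, 251 and 23.1 CPM. The 18 tubule and epithelial markers found summed to 3047 to 3284 CPM against 1596, 2335 and 1615 CPM. Without the library labelled immunoprecipitate 2, edgeR called 10 of 12 fibroblast, 9 of 13 neutrophil, 6 of 8 tested immune and endothelial, and 12 of 17 tested tubule markers lower, and 0 of each list higher. Over all genes that fit called 27.2% lower and 23.9% higher. The part of these cell types or of that library in the receptor values was not tested.

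SQSTM1 (ENSG00000161011, chromosome 5, 179806398 to 179838078, plus strand), the receptor that gathers ubiquitinated proteins into condensates and also holds KEAP1, was at 293, 303 and 306 CPM in lysates 1, 2 and 3. It was at 152, 424 and 154 CPM in immunoprecipitates 1, 2 and 3. The lysates lay close together, while the immunoprecipitates lay on both sides of them. edgeR put the difference, immunoprecipitate minus lysate, at -0.31 on the log2 scale with an SE of 0.43 (adjusted p = 0.717). Once the library labelled immunoprecipitate 2 was left out, SQSTM1 fell by 0.96 (log2) with an SE of 0.05 (edgeR adjusted p = 2.05e-05). Its span overlaps MRNIP over 2946 bases and MGAT4B over 157 bases, both on the other strand, and counts from those stretches are uncertain.

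NBR1 (ENSG00000188554, chromosome 17, 43170481 to 43211689, plus strand), which works beside SQSTM1 on aggregates and on peroxisomes, was at 118, 118 and 112 CPM in lysates. It was at 65.9, 208 and 66.4 CPM in immunoprecipitates 1, 2 and 3. Immunoprecipitates 1 and 3 agreed within 1 CPM, and the library labelled immunoprecipitate 2 held the highest NBR1 value of the experiment. Its difference over the 6 libraries came to -0.03 (log2) with an SE of 0.48 (edgeR adjusted p = 0.976), and the sign turned with RLE, upper-quartile or library-total scaling. With that library left out NBR1 fell by 0.80 (log2) with an SE of 0.06 (edgeR adjusted p = 1.08e-04).

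TOLLIP (ENSG00000078902, chromosome 11, 1274371 to 1309654, minus strand), an endosomal adaptor that binds ubiquitin through a CUE domain, was the lowest of the 9 per length. It was at 34.7, 35.2 and 38.9 CPM in lysates, against 15.6, 60.5 and 14.2 CPM in immunoprecipitates 1, 2 and 3. Lysates and immunoprecipitates overlapped only because of the library labelled immunoprecipitate 2. TOLLIP differed by -0.27 (log2) with an SE of 0.58 when all 6 were fitted (edgeR adjusted p = 0.820). On the 5 remaining libraries TOLLIP fell by 1.27 (log2) with an SE of 0.10 (edgeR adjusted p = 1.20e-04), the lowest value among the 9 receptors there.

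CALCOCO2 (ENSG00000136436, chromosome 17, 48831018 to 48866522, plus strand), which recruits the autophagy machinery to bacteria and damaged mitochondria, was at 86.8, 92.0 and 81.6 CPM in lysates. It was at 68.0, 116 and 67.2 CPM in immunoprecipitates 1, 2 and 3. Its immunoprecipitate values kept closer to lysate than those of SQSTM1, NBR1 and TOLLIP. CALCOCO2 differed by -0.05 (log2) with an SE of 0.26 (edgeR adjusted p = 0.923), and the sign turned under the 3 other scalings. On leaving out the library labelled immunoprecipitate 2, CALCOCO2 fell by 0.35 (log2) with an SE of 0.07 (edgeR adjusted p = 0.00705).

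OPTN and TAX1BP1 were the 2 receptors whose 3 immunoprecipitates all lay above all 3 lysates. Of all tested genes, 13.4% had this layout. Both bind ubiquitin and both are partners of the kinase TBK1, OPTN in mitophagy and clearance of bacteria and TAX1BP1 in clearance of aggregates.

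OPTN (ENSG00000123240, chromosome 10, 13099449 to 13138308, plus strand) was at 136, 145 and 145 CPM in lysates, against 223, 248 and 270 CPM in immunoprecipitates 1, 2 and 3. All immunoprecipitates, including the library labelled immunoprecipitate 2, were higher than the lysates. OPTN differed by 0.80 (log2) with an SE of 0.17, short of the threshold (edgeR adjusted p = 0.0943). DESeq2 placed OPTN past it, at a log2 fold change of 0.82 (adjusted p = 0.00704), as did limma on log2(FPKM + 1) at 0.91 (adjusted p = 0.0187). With the library labelled immunoprecipitate 2 set aside, OPTN rose by 0.81 (log2) with an SE of 0.09 (edgeR adjusted p = 5.46e-04), close to the value over 6 libraries. Over all 16 alternative settings the adjusted p ranged from 5.46e-04 to 0.479. Its span overlaps CCDC3 on the other strand over 204 bases, and CCDC3 was at 30.7 CPM in the library labelled immunoprecipitate 2 and at most 0.47 CPM in each other library.

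TAX1BP1 (ENSG00000106052, chromosome 7, 27739331 to 27844564, plus strand) was at 139, 143 and 129 CPM in lysates, against 195, 175 and 234 CPM in immunoprecipitates 1, 2 and 3. The immunoprecipitates were all higher, with the library labelled immunoprecipitate 2 nearest to the lysates. TAX1BP1 differed by 0.56 (log2) with an SE of 0.18 (edgeR adjusted p = 0.170). On leaving that library out TAX1BP1 rose by 0.66 (log2) with an SE of 0.09 (edgeR adjusted p = 0.00158). Its span overlaps JAZF1 on the other strand over 13992 bases, where the source of counts is uncertain, and JAZF1 itself ranged from 4.42 to 5.04 CPM in lysates, against 2.31, 17.8 and 1.06 CPM in immunoprecipitates 1, 2 and 3.

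**Figure D2:**
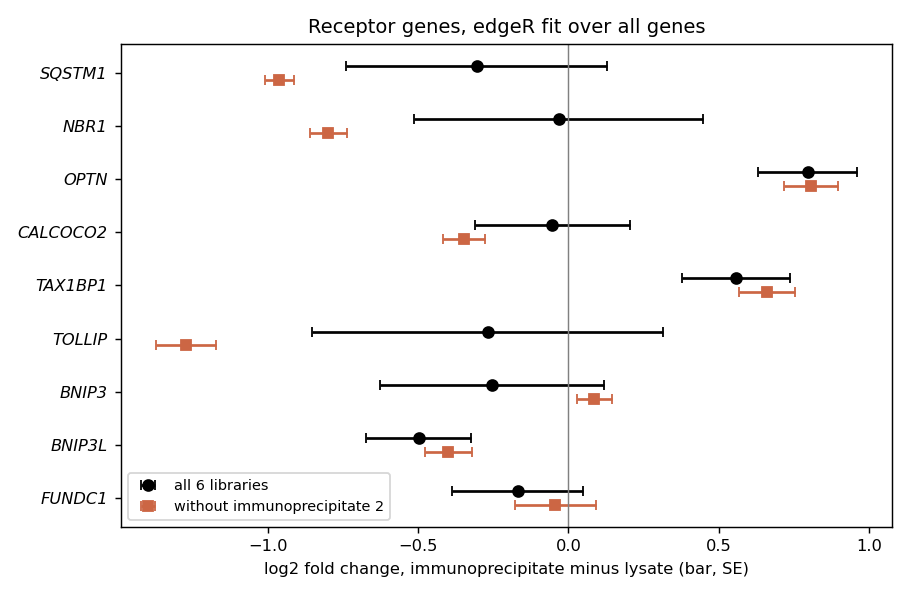
Log2 fold change, immunoprecipitate minus lysate, of each receptor gene from the edgeR fit over all genes, with bars of 1 SE, over all 6 libraries (circles) and without the library labelled immunoprecipitate 2 (squares). OPTN and TAX1BP1 keep their place in both fits, whereas SQSTM1, NBR1 and TOLLIP move from -0.31, -0.03 and -0.27 to -0.96, -0.80 and -1.27.

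The mitochondrial receptors were closer to lysate in immunoprecipitates 1 and 3 than most soluble ones. BNIP3 (ENSG00000176171, chromosome 10, 131967684 to 131981965, minus strand), a hypoxia-induced mitophagy receptor, was at 246, 241 and 259 CPM in lysates, against 256, 102 and 268 CPM in immunoprecipitates 1, 2 and 3. Only the library labelled immunoprecipitate 2 stood apart, below all others. BNIP3 differed by -0.25 (log2) with an SE of 0.37 over 6 libraries (edgeR adjusted p = 0.726). The value turned to 0.09 (log2), with an SE of 0.06, on omitting that library (edgeR adjusted p = 0.258). The 21 annotated BNIP3 pseudogenes held counts equal to 0.681% to 1.24% of the BNIP3 count in lysates and to 1.99%, 4.51% and 1.31% in immunoprecipitates 1, 2 and 3, so reads shared with these copies are a small uncertain part. Its span also overlaps 2 unnamed genes on the other strand.

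BNIP3L (ENSG00000104765, chromosome 8, 26383054 to 26413127, plus strand), the paralogue that clears mitochondria from maturing red cells, was at 252, 254 and 250 CPM in lysates. It was at 175, 157 and 204 CPM in immunoprecipitates 1, 2 and 3. It was the only receptor with all immunoprecipitates below all lysates, a layout found in 17.7% of tested genes. BNIP3L differed by -0.50 (log2) with an SE of 0.18 (edgeR adjusted p = 0.191). After removal of the library labelled immunoprecipitate 2, BNIP3L fell by 0.40 (log2) with an SE of 0.08 (edgeR adjusted p = 0.00645).

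FUNDC1 (ENSG00000069509, chromosome X, 44523639 to 44542859, minus strand), a hypoxia-responsive receptor whose binding to LC3 is set by phosphorylation, was at 17.4, 17.7 and 17.3 CPM in lysates. It was at 15.1, 13.1 and 18.5 CPM in immunoprecipitates 1, 2 and 3. The groups overlapped, with immunoprecipitate 3 the highest value and the library labelled immunoprecipitate 2 the lowest. FUNDC1 differed by -0.17 (log2) with an SE of 0.22 (edgeR adjusted p = 0.689), and by -0.04 with an SE of 0.13 when that library was left out (edgeR adjusted p = 0.816).

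On the deposited FPKM scale, which divides by length and so allows genes to be compared, lysates held BNIP3 at 55.8 ± 2.32 FPKM (SD, n = 3) and BNIP3L at 55.1 ± 1.27 FPKM. These did not differ beyond their spread. SQSTM1 followed at 36.2 ± 0.35 FPKM and OPTN at 25.1 ± 0.42 FPKM. TAX1BP1 at 13.6 ± 0.78 FPKM, FUNDC1 at 12.6 ± 0.24 FPKM and NBR1 at 12.5 ± 0.55 FPKM came next, each overlapping its neighbour in that order. CALCOCO2 was at 9.47 ± 0.55 FPKM and TOLLIP at 5.49 ± 0.32 FPKM, with no overlap between them.

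The order was another in the precipitates. OPTN stood second after BNIP3 in immunoprecipitates 1 and 3, at 45.6 and 54.1 FPKM, ahead of BNIP3L at 44.3 and 50.5 FPKM. SQSTM1 stood below TAX1BP1 there, at 21.2 and 21.0 FPKM against 22.4 and 26.2 FPKM. In the library labelled immunoprecipitate 2, SQSTM1 was first at 52.5 FPKM and BNIP3 stood at 23.6 FPKM, below OPTN and BNIP3L.

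Summed over the 9 receptors, FPKM was 226 ± 3.26 (SD, n = 3) in lysates and 232, 229 and 254 in immunoprecipitates 1, 2 and 3, while the make-up of the sum differed between libraries. OPTN took 11.1% ± 0.32 (SD, n = 3) of this sum in lysates and 19.6%, 19.6% and 21.3% in immunoprecipitates 1, 2 and 3. SQSTM1 took 16.0% ± 0.20 in lysates and 9.14%, 22.9% and 8.28% in the immunoprecipitates. The 6 soluble receptors together took 45.3% ± 0.62 in lysates, 46.9% and 47.3% in immunoprecipitates 1 and 3, and 70.1% in the library labelled immunoprecipitate 2. The differences between these shares were not tested.

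**Figure D3:**
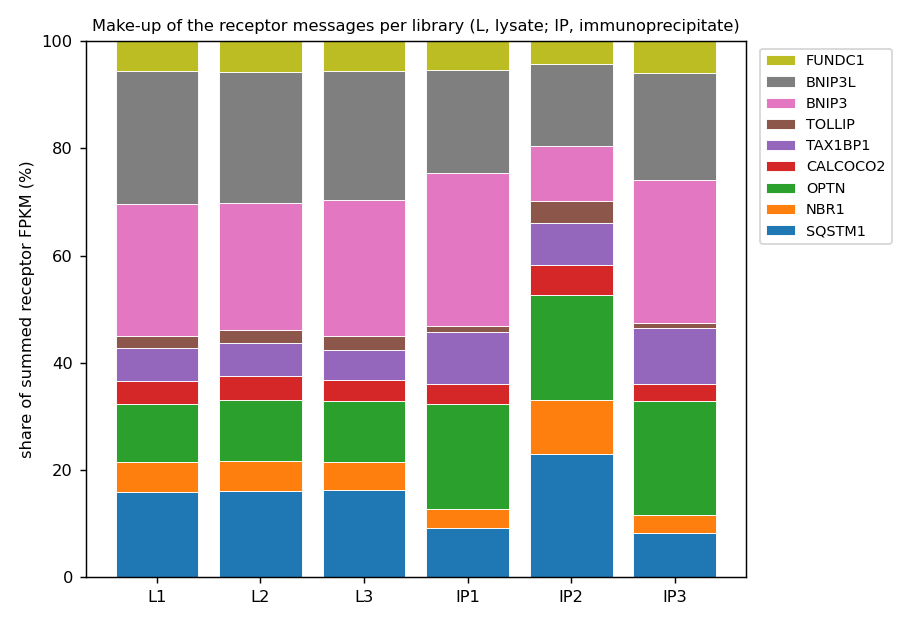
Share of each receptor in the summed receptor FPKM of each library, as stacked percentages. The OPTN block covers 11.1% on average in lysates and 19.6% to 21.3% in the immunoprecipitates, and the 3 mitochondrial receptors at the top cover 29.9% in the library labelled immunoprecipitate 2 against 54.7% on average in lysates.

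The receptor genes had 87 annotated transcripts with counts, and 18 of them reached 10% of their gene's count in some library. The assignment of reads between overlapping transcripts is an estimate. None of the 40 transcripts that were tested was called by edgeR over all 6 libraries (0 of all 62534 transcripts tested, 0%). At an unadjusted edgeR p below 0.05 there were 4 of the 40, beside 6044 of the 62534. Of 42 tested without the library labelled immunoprecipitate 2, 3 fell and 0 rose, beside 6.2% lower and 2.49% higher over all transcripts. They were the main transcripts of SQSTM1 (ENST00000389805, log2 fold change -1.41, adjusted p = 0.0141), NBR1 (ENST00000590996, -0.97, adjusted p = 0.0437) and BNIP3L (ENST00000380629, -0.74, adjusted p = 0.0227), all from edgeR. The transcript fit has its own TMM scaling, so its values cannot be set against the gene values as a larger fall. The BNIP3L transcript held nearly all of its gene's count, yet the gene stood at -0.40 in the gene fit on the same libraries.

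Transcript usage, tested with edgeR's diffSpliceDGE and Simes' method, was called in 0 of the 8 receptor genes that could be tested (background 2.32%). Without the library labelled immunoprecipitate 2 it was called in NBR1 (adjusted p = 0.00780) and OPTN (adjusted p = 0.0301), against a background of 11.8%. In NBR1 the transcript from the upstream start, ENST00000341165, took 20.8%, 1.97% and 10.5% of the gene's count in lysates 1, 2 and 3 and 0%, 0.626% and 0% in immunoprecipitates 1, 2 and 3. The downstream transcript ENST00000590996, whose preceding window is printed above, took 78.4% to 97.5% in lysates and 98.3% to 98.8% in immunoprecipitates. The lysates thus spread widely, the immunoprecipitates lay close together, and the groups did not overlap. The exact permutation test, two-sided, gave p = 0.1 for each transcript (adjusted p = 0.36 over 18 transcripts). With 3 libraries against 3, its p cannot fall below 0.1, so this test could not pass the threshold.

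In OPTN, 4 coding transcripts that start within 10 bases of each other shared the count. ENST00000378757 took 24.5%, 31.0% and 25.0% in lysates and 23.7%, 31.2% and 72.4% in immunoprecipitates 1, 2 and 3. Immunoprecipitate 3 alone stood apart there. In SQSTM1, ENST00000389805 (8 exons, 2840 bases) took 94.0% to 95.3% in lysates and 90.4%, 96.1% and 85.5% in immunoprecipitates 1, 2 and 3, while non-coding SQSTM1 transcripts took 1.51% to 1.896% in lysates and 5.38%, 0.851% and 10.1%. The non-coding share was thus higher than in lysate in immunoprecipitates 1 and 3 and lower in the library labelled immunoprecipitate 2. CALCOCO2 had 0.543% to 0.880% non-coding in lysates and 3.35%, 0.751% and 3.82% in immunoprecipitates 1, 2 and 3, with the library labelled immunoprecipitate 2 inside the lysate range.

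In BNIP3, as in NBR1, the shares of 2 transcripts did not overlap between the groups. In each gene these 2 make up nearly all of the count, so they show 1 difference and not 2. How often shares fail to overlap over all transcripts was not counted. The longer ENST00000540159 (5 exons, 3066 bases) took 10.2%, 7.07% and 5.36% in lysates and 19.0%, 15.3% and 19.3% in immunoprecipitates 1, 2 and 3. The shorter ENST00000368636 (6 exons, 1542 bases) took 87.4%, 90.5% and 91.6% against 77.9%, 80.3% and 78.3%. Both share the start whose window is printed above. The exact permutation test, two-sided, gave p = 0.1 for each, the smallest that 3 against 3 allows, and an adjusted p of 0.36.

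TOLLIP counts were assigned to another start in a single library. ENST00000317204, from the upstream start, took 99.1% to 99.9% in lysates and 98.1% and 98.7% in immunoprecipitates 1 and 2, but 0% in immunoprecipitate 3. There ENST00000527886, from the downstream start with no motif match, took 98.7%, against 0% in each lysate and in immunoprecipitate 1 and 0.218% in the library labelled immunoprecipitate 2. The shares of ENST00000317204 did not overlap between the groups either, but those of immunoprecipitates 1 and 2 lay close to the lysates. The exact permutation test, two-sided, gave p = 0.1 (adjusted p = 0.36), again its smallest possible p, so it could not pass the threshold. Both transcripts have 6 exons and nearly the same length, 3627 and 3666 bases. In TAX1BP1, the transcript ENST00000416801, annotated for nonsense-mediated decay, took 0%, 2.18% and 0% in lysates and 15.2%, 13.2% and 0% in immunoprecipitates 1, 2 and 3. BNIP3L and FUNDC1 each had 1 main transcript, at 99.8% to 99.95% and at 91.3% to 98.8% of the count.

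**Figure D4:**
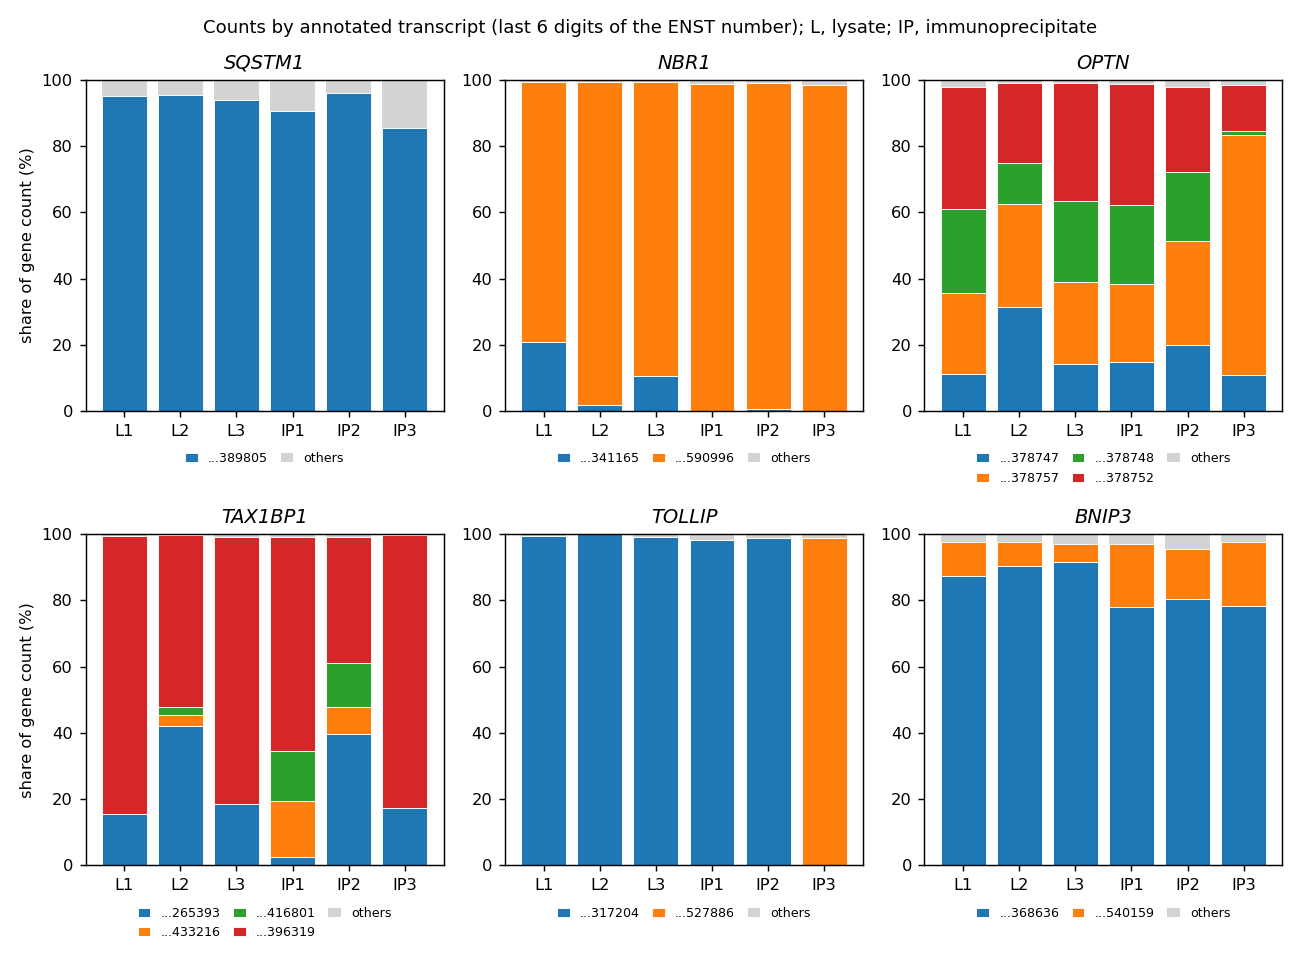
Share of the gene's count per annotated transcript in each library for 6 receptors, with transcripts that never reached 10% pooled in grey. The orange TOLLIP transcript fills immunoprecipitate 3 alone at 98.7%, and the orange BNIP3 transcript is wider in all 3 immunoprecipitates (15.3% to 19.3%) than in the lysates (5.36% to 10.2%).

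The genes around the receptors were read as 6 lists. Among 7 ATG8 proteins, the partners that receptors bind on the membrane, 1 was lower and 0 higher by edgeR over all 6 libraries (background 0.5% and 0.16%). It was GABARAPL1, at 269, 307 and 310 CPM in lysates and 123, 131 and 111 CPM in immunoprecipitates 1, 2 and 3. All immunoprecipitates lay well below the lysates, and GABARAPL1 fell by 1.28 (log2) with an SE of 0.17 (edgeR adjusted p = 0.0459). That call was lost with library totals in place of TMM, with no filter, with limma on log2(FPKM + 0.1), with the replicate number as a block and on leaving out each library in turn except the library labelled immunoprecipitate 2. GABARAPL2 differed by -0.40 (log2) with an SE of 0.26 (edgeR adjusted p = 0.417). The list's median log2 fold change was -0.04. Without the library labelled immunoprecipitate 2, 3 of 7 were lower and 0 higher (background 27.2% and 23.9%), with a median of -0.60.

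Of 15 tested among 16 other selective receptors and adaptors, 0 were called in either direction over 6 libraries, with a median of -0.43. LGALS8, which binds sugars exposed on broken vesicles and recruits CALCOCO2, was at 86.8 ± 6.28 CPM in lysates and 53.7 ± 4.95 CPM in immunoprecipitates (SD, n = 3 each; edgeR adjusted p = 0.108). NCOA4, the receptor for ferritin, was at 400.5 ± 13.7 CPM against 188 ± 69.7 CPM (SD, n = 3 each; edgeR adjusted p = 0.125). Without the library labelled immunoprecipitate 2, 11 of 15 were lower and 0 higher (background 27.2% and 23.9%), with a median of -0.76.

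The 33 kinases, ubiquitin genes, ligases and partners that act on the receptors had 0 calls over 6 libraries and a median of -0.20. SRC, a kinase that phosphorylates FUNDC1, was at 103 ± 2.13 CPM in lysates against 74.6 ± 1.17 CPM in immunoprecipitates (SD, n = 3 each; edgeR adjusted p = 0.160). On the 5 libraries without the one labelled immunoprecipitate 2, edgeR called 8 of the 33 higher and 16 lower, and the median was -0.21. Over all genes that fit called 23.9% higher and 27.2% lower, so the higher calls are near the background.

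Transcription factors known to drive receptor or autophagy genes had 0 calls among 11 over 6 libraries (median -0.21). MITF and EPAS1, the lowest by adjusted p, had log2 fold changes of -0.94 (edgeR adjusted p = 0.184) and -0.90 (edgeR adjusted p = 0.233). Without the library labelled immunoprecipitate 2, 7 of 11 were lower and 0 higher (median -0.64, background 27.2% lower and 23.9% higher). The 16 targets of hypoxia-inducible factor, a regulator also of BNIP3, had 0 calls and a median of 0.18. P4HA1, a collagen hydroxylase subunit, was at -0.83 (edgeR adjusted p = 0.101) and SLC2A1, a glucose transporter, at -1.57 (edgeR adjusted p = 0.108). With that library left out, 4 of these 16 passed as higher and 6 as lower (median -0.03), beside 23.9% and 27.2% of all genes.

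Targets of NRF2, the factor that drives SQSTM1 transcription, had 0 calls among 15 tested over 6 libraries, with a median of -0.34. FTL, ferritin light chain, was at 2514 ± 153 CPM in lysates and 1181 ± 265 CPM in immunoprecipitates (SD, n = 3 each; edgeR adjusted p = 0.101), and GCLM, of glutathione synthesis, at 63.7 ± 2.79 CPM against 39.4 ± 4.31 CPM (SD, n = 3 each; edgeR adjusted p = 0.110). On the 5 libraries that exclude the one labelled immunoprecipitate 2, edgeR called 1 of 16 higher and 10 lower, and the median was -1.19. In that fit the background was 23.9% higher and 27.2% lower, with a median of -0.06 over all genes.

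**Figure D5:**
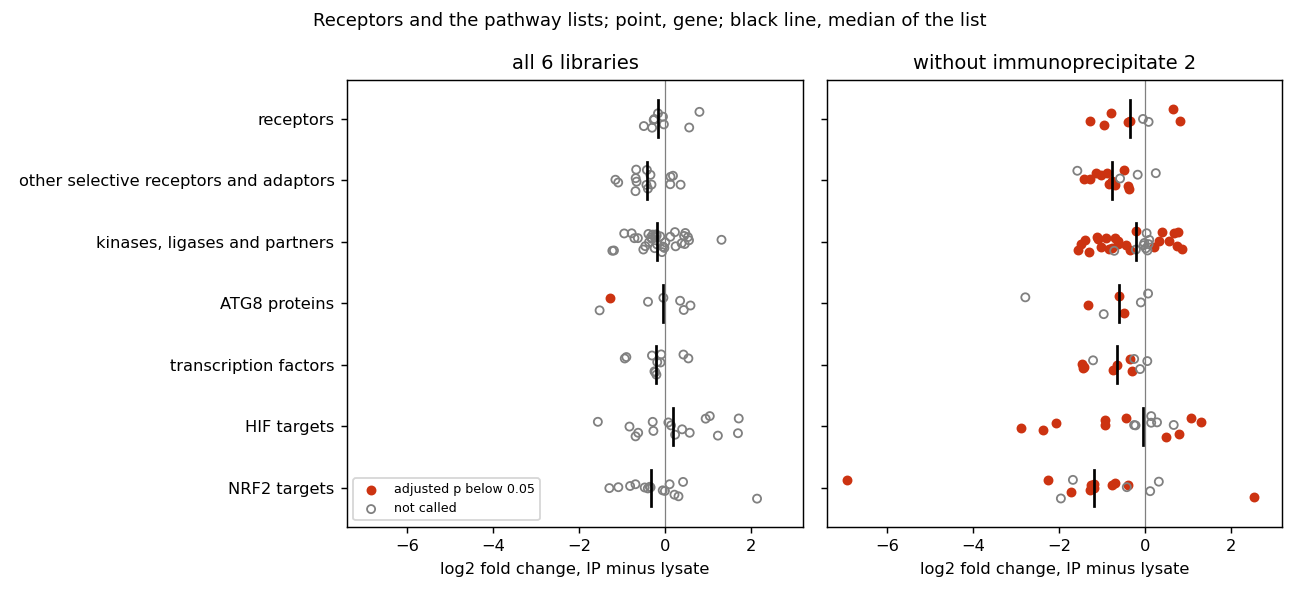
Log2 fold change of the receptors and of the genes in the 6 pathway lists, over all 6 libraries (left) and without the library labelled immunoprecipitate 2 (right), with list medians as black lines and called genes as filled points. One gene, GABARAPL1, is filled on the left, and list medians on the right run from -0.03 for targets of hypoxia-inducible factor to -1.19 for NRF2 targets.

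Genes whose levels ran most like each receptor were found by the root mean square difference of log2 CPM, each gene centred on its lysate mean, over the 6 libraries. The nearest to NBR1 was MARS1, a cytoplasmic methionyl-tRNA synthetase, at a distance of 0.010, with 161, 161 and 152 CPM in lysates and 90.0, 282 and 92.0 CPM in immunoprecipitates 1, 2 and 3. The nearest to SQSTM1 was BTN3A2, at 0.029, followed by CTNNA1, the adherens junction gene of alpha-catenin, at 0.046. MTREX, an RNA helicase of the nuclear exosome, was nearest to CALCOCO2 (0.028), and MTCH2, of the outer mitochondrial membrane, was among the 3 nearest to TOLLIP (0.054). AHNAK2 was nearest to OPTN (0.070) and CHSY1 to TAX1BP1 (0.043). KLHL23 was nearest to BNIP3L (0.030), MLF1 to BNIP3 (0.057) and NMI to FUNDC1 (0.039). No receptor was among the 3 nearest genes of another.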

How the data were processed

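RNA of 3 lysate and 3 immunoprecipitate libraries was compared, grouped by their titles. The libraries hold oligo(dT)-selected RNA with dUTP-marked second strands, per the labels' protocols; no source used here says if counting was by strand. The submitters' processing notes list StringTie 2.1.6, HISAT2 2.2.1, cutadapt 1.9, DESeq2, edgeR and the build GRCh38.p14. The deposited values, per the file headers, are whole-number counts per gene and per transcript, and FPKM per gene, which the authors scaled by length and library. Treatment labels number the plasmid differently in each sample, while the immunoprecipitate titles name VMP1; titles were followed.

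Counts were tested with edgeR 4.0.16 in R 4.3.3 (TMM, default expression filter, quasi-likelihood test, Benjamini-Hochberg over all genes or transcripts, threshold 0.05). Each SE was the absolute log2 fold change over the root of F. Alternatives were 3 other scalings, other filters, DESeq2 1.42.0, limma 3.58.1 on log2 FPKM with a pseudocount of 1 or 0.1, the replicate block, and each library left out in turn. The code was tested on simulated data. Members and lists were chosen with earlier results of these data known. All 9 receptors are named, with the 2 genes of lowest adjusted p in each pathway list, transcripts reaching 10% of their gene's count, and nearest genes at a mean of at least 5 CPM (log2 of CPM + 0.5); 2 genes that these rules name are not reported here. One receptor had no promoter window in the table used.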

Additional observations from a re-analysis of the deposited data

How the results depend on the processing

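With other scalings, filters and tools over all 6 libraries, receptors called higher numbered 1 with DESeq2 and 1 with limma on log2(FPKM + 1), both OPTN, and 0 otherwise; receptors called lower numbered 0. Over all genes, DESeq2 called 1542 higher and 966 lower, limma on log2(FPKM + 1) 350 and 461, limma on log2(FPKM + 0.1) 66 lower, no filter 7 and 33, and a filter of a mean of at least 1 CPM 74 higher, against 33 and 103 by the edgeR fit reported. In the pathway lists (0 higher, 1 lower), DESeq2 called 2 and 8, limma on log2(FPKM + 1) 4 lower, and library totals, limma on log2(FPKM + 0.1) and no filter each 0 lower. Leaving out 1 library at a time gave 0 to 2 receptors higher, 0 to 5 lower, 0 to 5276 genes higher, 0 to 5997 lower (2114 to 12604 at an unadjusted p below 0.05), 0 to 13 list genes higher, 0 to 53 lower, 0 to 3 receptor transcripts and 0 to 2 receptor genes with a usage call; each maximum came without the library labelled immunoprecipitate 2.

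The sign of NBR1 turned to 0.020 with RLE size factors, 0.064 with library totals, 0.020 with the upper quartile and 0.017 with the 1 CPM filter. That of CALCOCO2 turned to 2.4e-04, 0.067, 0.016 and 0.0021 under these, and to 0.044 and 0.042 with limma on log2(FPKM + 0.1) and log2(FPKM + 1). Leaving out 1 library gave -0.80 to 0.22 for NBR1, -0.35 to 0.064 for CALCOCO2, -1.27 to 0.049 for TOLLIP and -0.49 to 0.087 for BNIP3. The median of all genes was 0.06 with TMM, 0.11 with RLE size factors, 0.13 with the upper quartile and 0.19 with library totals. The cause of the sign changes and of the other changes was not tested.

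Same-numbered lysates and immunoprecipitates had correlations of -0.030, -0.074 and 0.026 in their deviations from the group means. The library labelled immunoprecipitate 2 weighs heavily on these deviations, so they cannot decide whether the shared numbers mark pairs. With the replicate block, 0 genes were called higher and 0 lower (2658 at an unadjusted p below 0.05), with 0 list genes. The replicate block without the library labelled immunoprecipitate 2, chosen after seeing the data, called 2 receptors higher and 4 lower, losing CALCOCO2, with BNIP3 at 0.056, 3482 genes higher (15.8%) and 4444 lower (20.1%), and 10 and 42 list genes.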
